A study of Mus musculus with 6 samples.

Results

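The 10 Toll-like receptor genes Tlr1, Tlr2, Tlr3, Tlr4, Tlr5, Tlr6, Tlr7, Tlr8, Tlr9 and Tlr13 were followed in mouse bone marrow before and after a sort for green fluorescent protein (GFP). They were chosen by symbol from the array's annotation, and all 10 were among the 18193 named genes measured, through 16 probe sets that carry 1 symbol. The sorted samples (n = 3) were marrow cells that passed a GFP gate, and the presort samples (n = 3) were unsorted marrow. All samples came from hemizygous adult mice, male and female and 3 to 6 months old, carrying a GFP transgene driven by renin sequences. Femurs of 4 to 5 mice were flushed and pooled for each replicate. Sorted and presort arrays of the same replicate number were taken as partners from 1 pool, which the sample titles do not state. Scatter gates against erythrocytes, debris and doublets came before the GFP gate, whose lower limit admitted 0.1% of cells of transgene-negative marrow; presort marrow passed no gate. Cells of several types can pass such a gate, and animals were pooled, so no value below belongs to a single cell type or mouse. The renin gene was not used to check the sort.

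Toll-like receptors are innate immune receptors that bind conserved molecules of microbes through leucine-rich repeats and signal through a cytoplasmic TIR domain. One class sits on the cell surface and binds lipids, lipoproteins or flagellin; the other sits in endosomes and binds nucleic acids. Tlr1, Tlr2, Tlr4, Tlr5 and Tlr6 were taken as surface receptors and Tlr3, Tlr7, Tlr8, Tlr9 and Tlr13 as endosomal ones. Myeloid cells of the marrow are known for broad expression of the family, whereas Tlr1, Tlr4, Tlr6, Tlr7 and Tlr9 are among those known from mouse B cells.

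Across the family, 5 of 10 genes fell in sorted samples, 1 rose and 4 did not pass the test. The genes that fell were Tlr13, Tlr7, Tlr2, Tlr4 and Tlr5, and the gene that rose was Tlr1. Both classes held genes that fell: 3 of 5 surface receptors and 2 of 5 endosomal receptors. Over all genes tested, 18.1% were called lower and 14.5% higher (limma, Benjamini-Hochberg adjusted p under 0.05), so 32.6% were called in either direction. The median difference, sorted minus presort on the log2 intensity scale, was -0.54 over the 10 receptors, -0.83 over the surface class, -0.23 over the endosomal class and -0.0021 over all genes. In bulk RNA, fewer cells of a type and less RNA per cell cannot be told apart, nor can the scatter and GFP gates. With each array centred on its median the difference of all genes moved to 0.23 and the share of higher genes among all calls to 66.7%, against 44.4% as deposited, so differences of about this size have no settled sign.

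**Figure D1:**
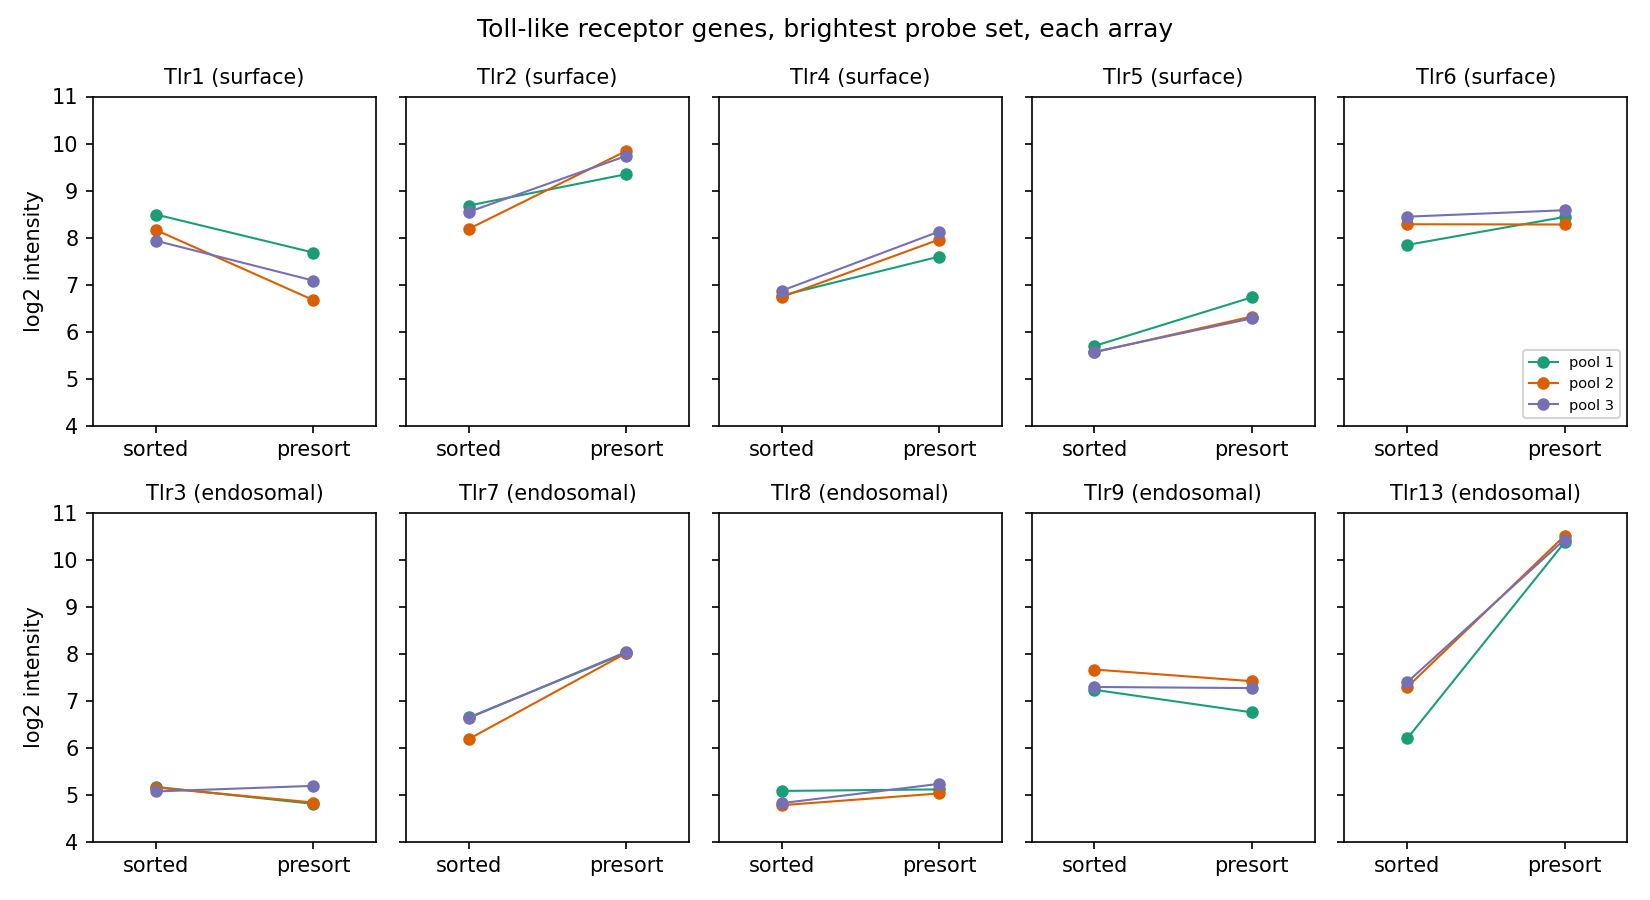
Log2 intensity (vertical axis) of each receptor gene at its brightest probe set in the 3 sorted and 3 presort arrays; lines join the arrays of 1 pool, and the upper row holds surface, the lower row endosomal receptors. Tlr13 drops to between 6.20 and 7.40 in sorted samples, against 10.37 to 10.51 in presort samples, while Tlr1 is higher in sorted samples in each pool.

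Sorted and presort samples also differed in a 3' to 5' measure used for RNA quality and in the markers of other cells. The 3' minus 5' difference of beta-actin, which grows as RNA degrades, ran from 1.43 to 3.17 in sorted and from 0.81 to 1.11 in presort samples (log2). The highest value was that of sorted replicate 1. Of the B cell markers 8 of 8 measured rose, with a summed intensity of 65513 to 76012 in sorted and 9953 to 20476 in presort samples. All measured monocyte (6), macrophage (8) and neutrophil (8) markers fell: their summed intensities were 2483 to 6356, 798 to 2410 and 33829 to 70887 in sorted samples, against 27795 to 31249, 6289 to 10935 and 132428 to 138384 in presort samples. No marker was at 0, since the lowest value of any array is 9.71. The part of RNA quality and of cell makeup in the results below was not tested. A fit with the beta-actin difference as a covariate is given below. The groups did not overlap in that difference, so the fit cannot separate RNA quality from the sort.

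Of the surface receptors, Tlr2, which pairs with Tlr1 or Tlr6 to bind lipoproteins, had log2 intensities of 8.68, 8.19 and 8.55 in sorted replicates 1 to 3, against 9.35, 9.84 and 9.74 in presort replicates 1 to 3. Its groups did not overlap. Tlr2 fell by 1.17 ± 0.18 (SE; 2.25-fold lower in sorted samples; limma adjusted p = 0.00151). The difference was -0.67, -1.66 and -1.19 in pools 1, 2 and 3, and the call held in every alternative, with falls from 0.93 to 1.42.

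Tlr1 and Tlr6 are the close partners of Tlr2, Tlr1 for triacylated and Tlr6 for diacylated lipoproteins, and neither was called lower. Tlr1 stood at 8.49, 8.16 and 7.93 in sorted samples, against 7.68, 6.67 and 7.09 in presort samples. Every sorted value lay above every presort value, and the presort arrays spread more (SD 0.51, against 0.28 in sorted samples; n = 3 each). Tlr1 rose by 1.05 ± 0.26 (SE; 2.07-fold; limma adjusted p = 0.0158), by 0.81, 1.49 and 0.85 in pools 1, 2 and 3. This call was lost without presort replicate 3 (adjusted p = 0.0576), without pool 2 (0.0926), without pool 3 (0.0800) and when the beta-actin difference was a covariate (0.71 ± 0.32, SE; 0.159).

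Tlr6 stood at 7.84, 8.28 and 8.44 in sorted samples, against 8.44, 8.28 and 8.58 in presort samples. The groups overlapped, and pool 2 showed nearly no difference. The fitted difference of Tlr6 was -0.24 (95% interval -0.64 to 0.16; limma adjusted p = 0.362). Each of the 3 lipoprotein receptors thus gave another outcome, with 1 called lower, 1 called higher and 1 not called; the differences between them were not tested.

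Tlr4, the receptor for lipopolysaccharide, is read by 4 probe sets that differed. At the brightest, 1418163_at, it had 6.77, 6.74 and 6.87 in sorted samples, against 7.59, 7.96 and 8.13 in presort samples. The groups did not overlap, and Tlr4 fell by 1.10 ± 0.15 (SE; 2.15-fold lower; limma adjusted p = 0.000851). The second probe set, 1418162_at, had 5.61, 5.61 and 6.05 in sorted samples, against 8.15, 8.77 and 8.69 in presort samples. That is a fall of 2.78 ± 0.20 (SE; 6.86-fold lower; adjusted p = 7.72e-05 in a limma fit over all 34945 single-symbol probe sets, of which 15.3% were called lower, 13.5% higher and 28.8% in either direction).

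The other two Tlr4 probe sets were dim, with group means of 4.04 to 4.69, where the lower quartile of an array lies at 4.71. Tlr4 probe set 1442827_at fell by 0.64 (adjusted p = 0.0349 over probe sets), and Tlr4 probe set 1430695_at gave 0.0059 (0.983). With the mean of the 4 probe sets the fall of Tlr4 was 1.13. Tlr4 thus fell at 3 of 4 probe sets, and the spread of their sizes was not tested.

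Tlr5, the flagellin receptor, had 5.70, 5.56 and 5.57 in sorted samples, against 6.73, 6.32 and 6.28 in presort samples. Its 3 sorted arrays lay close together and below all presort arrays. Tlr5 fell by 0.83 ± 0.14 (SE; 1.78-fold lower; limma adjusted p = 0.00276). The call held in every alternative, with falls from 0.61 to 0.95.

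**Figure D2:**
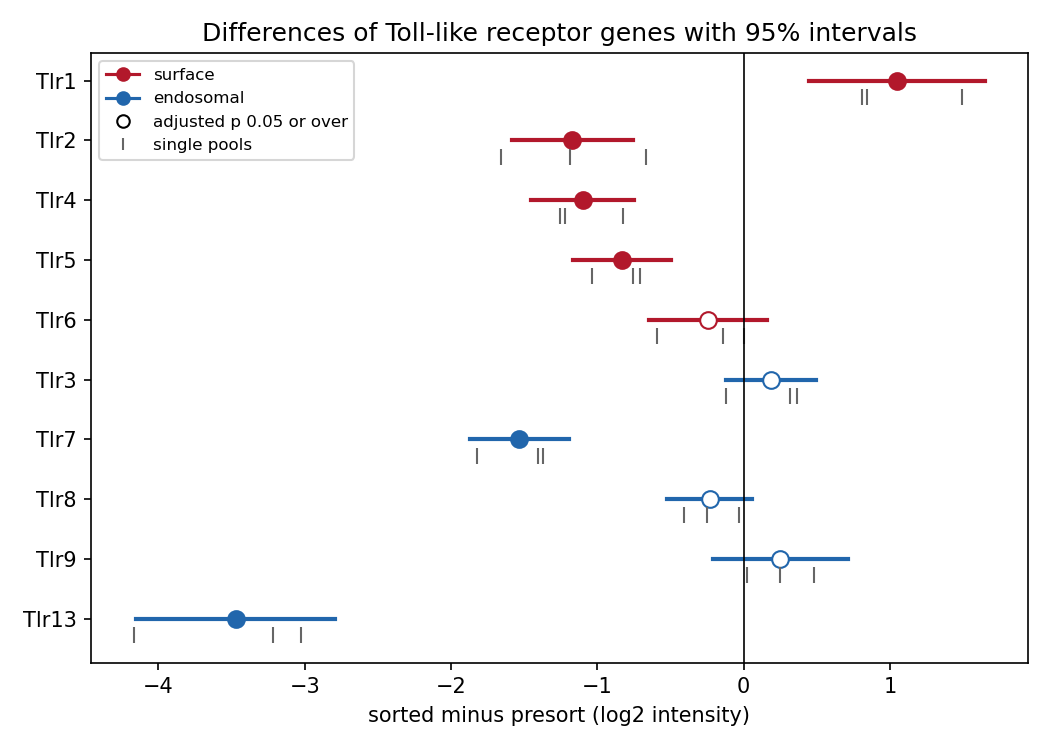
Sorted minus presort difference in log2 intensity (horizontal axis) of each receptor gene, with its 95% interval from the fit (n = 3 each); filled points passed the adjusted threshold, and grey ticks are the differences within pools 1, 2 and 3. Tlr13 lies farthest from 0 at -3.47, and Tlr1 is the 1 filled point to the right of 0.

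Among the endosomal receptors, Tlr13, a mouse receptor for bacterial ribosomal RNA, had 6.20, 7.29 and 7.40 in sorted samples, against 10.37, 10.51 and 10.43 in presort samples. The presort arrays were nearly equal, and sorted replicate 1, with the highest beta-actin 3' to 5' difference, was the lowest. Tlr13 fell by 3.47 ± 0.29 (SE; 11.1-fold lower; limma adjusted p = 7.46e-05), the largest difference of the 10 genes. It fell by 4.17, 3.22 and 3.03 in pools 1, 2 and 3, and with the beta-actin covariate by 2.74 (adjusted p = 0.000102).

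Tlr7, a receptor for single-stranded RNA, had 6.65, 6.19 and 6.64 in sorted samples, against 8.02, 8.01 and 8.04 in presort samples at its brightest probe set, 1422010_at. The groups lay well apart, and Tlr7 fell by 1.53 ± 0.15 (SE; 2.89-fold lower; limma adjusted p = 0.000128). Tlr7 probe set 1419848_x_at had group means of 5.28 in sorted and 5.53 in presort samples, and Tlr7 probe set 1449640_at of 5.17 and 5.32, and neither passed (adjusted p of 0.168 and 0.509 over probe sets). Both dim probe sets come from 1 and the same sequence record in the annotation. With the mean of the 3 probe sets the fall of Tlr7 shrank to 0.65 (adjusted p = 0.000922).

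Tlr9, the receptor for unmethylated CpG DNA, had 7.24, 7.67 and 7.30 in sorted samples, against 6.76, 7.42 and 7.27 in presort samples. The groups overlapped, although the sign was positive in each pool (0.48, 0.25 and 0.024). The difference of Tlr9 was 0.25 (95% interval -0.21 to 0.71; limma adjusted p = 0.422), and no alternative called it. The B cell markers stood 1.60 to 2.69 higher in the same comparison.

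Tlr3 and Tlr8, receptors for double-stranded and single-stranded RNA, were dim: both are among the dimmest 33.3% of genes by mean intensity, where changes are understated. Tlr3 had 5.17, 5.16 and 5.07 in sorted samples, against 4.81, 4.84 and 5.19 in presort samples. The groups overlapped, and its difference was 0.19 (95% interval -0.12 to 0.49; adjusted p = 0.358). Its other probe set, 1422781_at, gave -0.12, so the sign of Tlr3 depends on the probe set. Tlr8 had 5.08, 4.78 and 4.82 in sorted samples, against 5.12, 5.03 and 5.23 in presort samples, an overlap of groups with a difference of -0.23 (95% interval -0.52 to 0.06; adjusted p = 0.223).

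**Figure D3:**
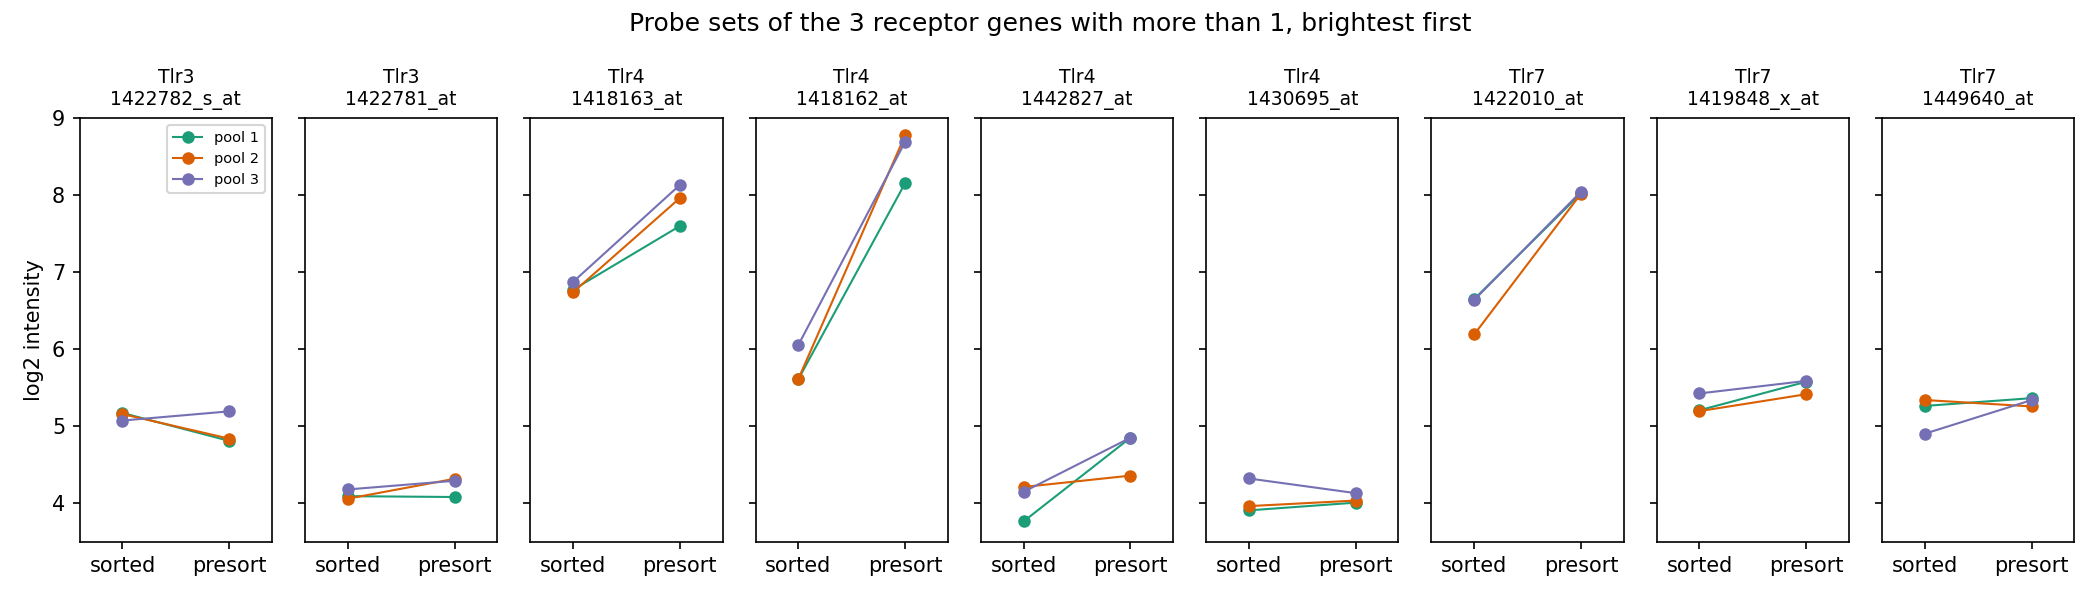
Log2 intensity (vertical axis) of every single-symbol probe set of Tlr3, Tlr4 and Tlr7 in sorted and presort arrays, with lines joining the arrays of 1 pool. Tlr4 falls by 1.10 at 1418163_at and by 2.78 at 1418162_at, and Tlr7 falls at 1422010_at alone among its 3.

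Set side by side, neither class moved as a whole. Groups did not overlap for 4 of 5 surface and 2 of 5 endosomal receptors, together 6 of 10, of which 1 was higher and 5 lower. Over all genes the groups did not overlap for 44.4%, with 20.9% higher and 23.6% lower. Surface differences ran from -1.17 to 1.05 and endosomal differences from -3.47 to 0.25. The class median was -0.67, -0.76 and -0.71 in pools 1, 2 and 3 for surface receptors and -0.03, -0.25 and -0.41 for endosomal ones. With 5 genes a class no test of the classes was made, and the counts of falls, 3 and 2, were the same in all 19 alternatives.

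The promoter windows of 3 members are shown because Tlr13 fell most, Tlr1 rose and Tlr9 was not called, and each holds the core of the site of PU.1, a transcription factor of myeloid and B cells. The windows run from 250 bases before to 50 after a gene start and come from RefSeq on GRCm38.p6. Tlr13 is at chrX:106143025-106143324 on the plus strand, Tlr1 (the first of its 2 windows) at chr5:64933509-64933808 on the minus strand and Tlr9 at chr9:106222348-106222647 on the plus strand, each written 5' to 3' along its gene. Capitals mark the core GAGGAA on either strand, and the motifs do not overlap.
Tlr13: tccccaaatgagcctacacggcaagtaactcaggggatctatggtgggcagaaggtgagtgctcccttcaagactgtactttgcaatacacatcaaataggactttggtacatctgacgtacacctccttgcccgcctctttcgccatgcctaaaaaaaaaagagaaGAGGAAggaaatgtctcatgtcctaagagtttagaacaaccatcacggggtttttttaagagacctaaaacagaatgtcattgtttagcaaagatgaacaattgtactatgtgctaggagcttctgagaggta
Tlr1: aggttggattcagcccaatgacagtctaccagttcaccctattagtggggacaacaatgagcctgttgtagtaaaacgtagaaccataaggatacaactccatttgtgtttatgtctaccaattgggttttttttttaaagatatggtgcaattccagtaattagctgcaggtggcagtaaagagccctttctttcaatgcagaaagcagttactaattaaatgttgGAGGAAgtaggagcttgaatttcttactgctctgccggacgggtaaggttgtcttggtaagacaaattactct
Tlr9: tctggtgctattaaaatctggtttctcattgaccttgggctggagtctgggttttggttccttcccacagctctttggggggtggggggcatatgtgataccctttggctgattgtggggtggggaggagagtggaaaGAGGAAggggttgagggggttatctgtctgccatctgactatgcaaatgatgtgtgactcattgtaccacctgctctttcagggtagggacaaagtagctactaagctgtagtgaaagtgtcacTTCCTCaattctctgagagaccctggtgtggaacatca
The core begins 83 bases before the start of Tlr13 and 23 before that of Tlr1, and Tlr9 holds 1 core 112 bases before its start and 1 after it on the other strand. Of 32851 windows of this length 28.3% hold the core, as do 4 of the 10 windows listed for 8 members. A letter match is no measured site, and a part of PU.1 in these differences was not tested. The second window of Tlr1 holds no core, nor do the windows of Tlr2 and Tlr5, which fell, or of Tlr3 and Tlr6, which were not called. No window was listed for Tlr4 or Tlr7.

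The counts in the lists below stand beside 14.5% higher and 18.1% lower over all genes, and no list was tested against these shares. The helpers of the surface receptors mostly fell. Of 6 genes listed as co-receptors or accessory proteins 4 fell and 1 rose. Lbp, a secreted protein that hands lipopolysaccharide to its receptors, fell by 2.92 ± 0.30 (SE, log2; limma adjusted p = 0.000202). Cd36, a scavenger receptor that serves lipoprotein sensing, fell by 2.21. Cd14, the lipopolysaccharide co-receptor, stood at 8.58, 10.14 and 8.88 in sorted samples, against 10.61, 10.48 and 10.76 in presort samples. Sorted replicate 2 was close to the presort arrays, and Cd14 fell by 1.42 (adjusted p = 0.0178). That call was lost without sorted replicate 3 (0.0644), presort replicate 3 (0.0658), pool 1 (0.0874), pool 3 (0.173) or with the beta-actin covariate (-0.86; 0.190). The other two calls, named after their values were seen, were Ly96, the protein that binds lipopolysaccharide with Tlr4, at -0.81, and Cd180, a B cell relative of Tlr4, at 0.78 (adjusted p = 0.00314). Without pool 3, or with the covariate, 2 of the 6 fell.

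Genes for folding and traffic of the receptors moved both ways, with 2 of 8 higher and 2 lower. Slc15a4, an endolysosomal transporter needed for Tlr7 and Tlr9 signalling, rose by 1.38 ± 0.22 (SE; 0.70 when its probe sets were averaged). Lyst, a regulator of lysosome size, fell by 1.74, and Rab7b, a GTPase of late endosomes, was 2.01-fold lower (its averaged probe sets fell by 0.56). Unc93b1, which carries the nucleic acid receptors to endosomes and was named after its value was seen, had 11.47, 11.17 and 11.45 in sorted samples, against 10.72, 10.48 and 10.49 in presort samples. Its groups did not overlap, and it rose by 0.80 ± 0.13 (SE; limma adjusted p = 0.00215). With arrays centred on their median 5 of the 8 were higher. Of 5 endolysosomal proteases, which cleave the endosomal receptors, Lgmn rose by 0.89 and Ctsb fell by 1.19 (0.69 with the beta-actin covariate), and 3 were not called. The Lgmn call was lost without presort replicate 2 (adjusted p = 0.0543), pool 1 (0.0619) or pool 2 (0.0578).

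Of 5 measured adaptor genes 1 rose and 2 fell. Myd88, the adaptor of nearly all members, had 9.83, 9.92 and 9.82 in sorted samples, against 10.38, 10.39 and 10.38 in presort samples. The arrays of each group lay close together, and Myd88 fell by 0.52 ± 0.10 (SE; limma adjusted p = 0.00429). That call was lost without pool 3 (0.0704), with arrays centred on their median (-0.30; 0.0572) and with a minimum of 1.2-fold. Tirap, which recruits Myd88 to the membrane, fell by 0.50 and lost its call without any 1 of sorted replicates 1 and 3, presort replicates 1 and 3 and pools 1 and 3 (adjusted p from 0.0537 to 0.157), and with the covariate. Its call was also lost with arrays centred on their median and with a minimum of 1.2-fold. Pik3ap1, an adaptor to phosphoinositide kinase in B cells and macrophages, rose by 1.99 ± 0.40 (adjusted p = 0.00638; 0.0570 without pool 3).

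Of 15 measured kinase and ligase genes 4 rose and 4 fell, with a median of 0.06. Traf6, the ubiquitin ligase downstream of Myd88, had 10.70, 10.32 and 10.49 in sorted samples, against 8.84, 8.44 and 8.11 in presort samples. Its groups lay apart, and it rose by 2.04 ± 0.20 (SE; limma adjusted p = 0.000142). Peli1, another ligase of the pathway, rose by 1.48, and Ikbke, a kinase of the interferon branch, fell by 2.51. Without pool 2 the list had 2 rises and 1 fall, without pool 3 1 fall, without sorted or presort replicate 2 2 falls, and without pool 1 or presort replicate 1 2 rises.

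Transcription factor genes listed with the pathway, not all of them particular to it, were mostly higher: 6 of 8 measured rose and 1 fell, with a median of 0.98. Rel, an NF-kappaB subunit of lymphocytes, had 11.56, 9.40 and 10.11 in sorted samples, against 7.36, 7.22 and 6.85 in presort samples. Sorted replicate 1 was the highest, and Rel rose by 3.21 ± 0.48 (SE; limma adjusted p = 0.00134), or by 2.05 with the beta-actin covariate. Relb rose by 2.56 and Nfkb2 by 1.61. The factor that fell, named after its value was seen, was Irf7, which drives interferon genes after endosomal sensing, at -1.45 (adjusted p = 0.00438). Without pool 2 no factor of the list was called lower.

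Of 15 measured genes listed as brakes on the pathway 7 rose and 1 fell, with a median of 0.67. Tnfaip3, a deubiquitinase that dampens NF-kappaB, had 13.75, 12.40 and 12.76 in sorted samples, against 10.02, 9.78 and 9.45 in presort samples. The groups lay far apart, and Tnfaip3 rose by 3.21 ± 0.33 (SE; limma adjusted p = 0.000186). Nfkbiz, placed in this list although its product can also act as an activator, rose by 1.93 (1.04 when its probe sets were averaged). The ribonuclease gene Zc3h12a rose by 1.34 (0.85 when averaged). The brake that fell, named after its value was seen, was Irak3, the kinase-like inhibitor of myeloid cells, at -1.33. Without pool 3, 4 genes of the list rose, and without sorted replicate 3, 2 fell. Several of these factors and brakes are also immediate early genes in other settings, and whether Toll-like receptors had a part was not tested.

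Cytokine genes known to be induced through the receptors were mostly not called: of 14, 1 rose, 2 fell and 11 did not pass, and 5 were among the dimmest 33.3% of genes. Most genes of the array were not called either, with 32.6% called in either direction. Il12a had 9.82, 10.57 and 10.12 in sorted samples, against 7.86, 7.14 and 7.19 in presort samples. Its groups lay apart, and it rose by 2.78 ± 0.25 (SE; limma adjusted p = 9.77e-05). Its partner chain Il12b, named after its value was seen, did not pass at -0.04. Cxcl2, also named after its values were seen, had 10.71, 11.23 and 10.61 in sorted samples, against 9.48, 9.80 and 5.19 in presort samples, and did not pass (adjusted p = 0.101), with presort replicate 3 far below the other arrays. Il1b fell by 1.69 (adjusted p = 0.0127), a call lost without presort replicate 2 (0.0531), without pool 3 (0.132) and with the covariate (-1.01; 0.144). Cxcl10, dim and lower by 0.42 (adjusted p = 0.0455), lost its call in 10 of the 18 alternatives that kept it in the test, among them the fit with the pool as a block (0.0614) and those without sorted replicate 2 or 3, presort replicate 2 or 3, pool 2 or pool 3. The count of falls was 0 without presort replicate 2 and 1 without sorted replicate 2, pool 2 or pool 3, and the count of rises was 2 without presort replicate 3 or pool 3. With the pool as a block, 2 rose and 1 fell.

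**Figure D4:**
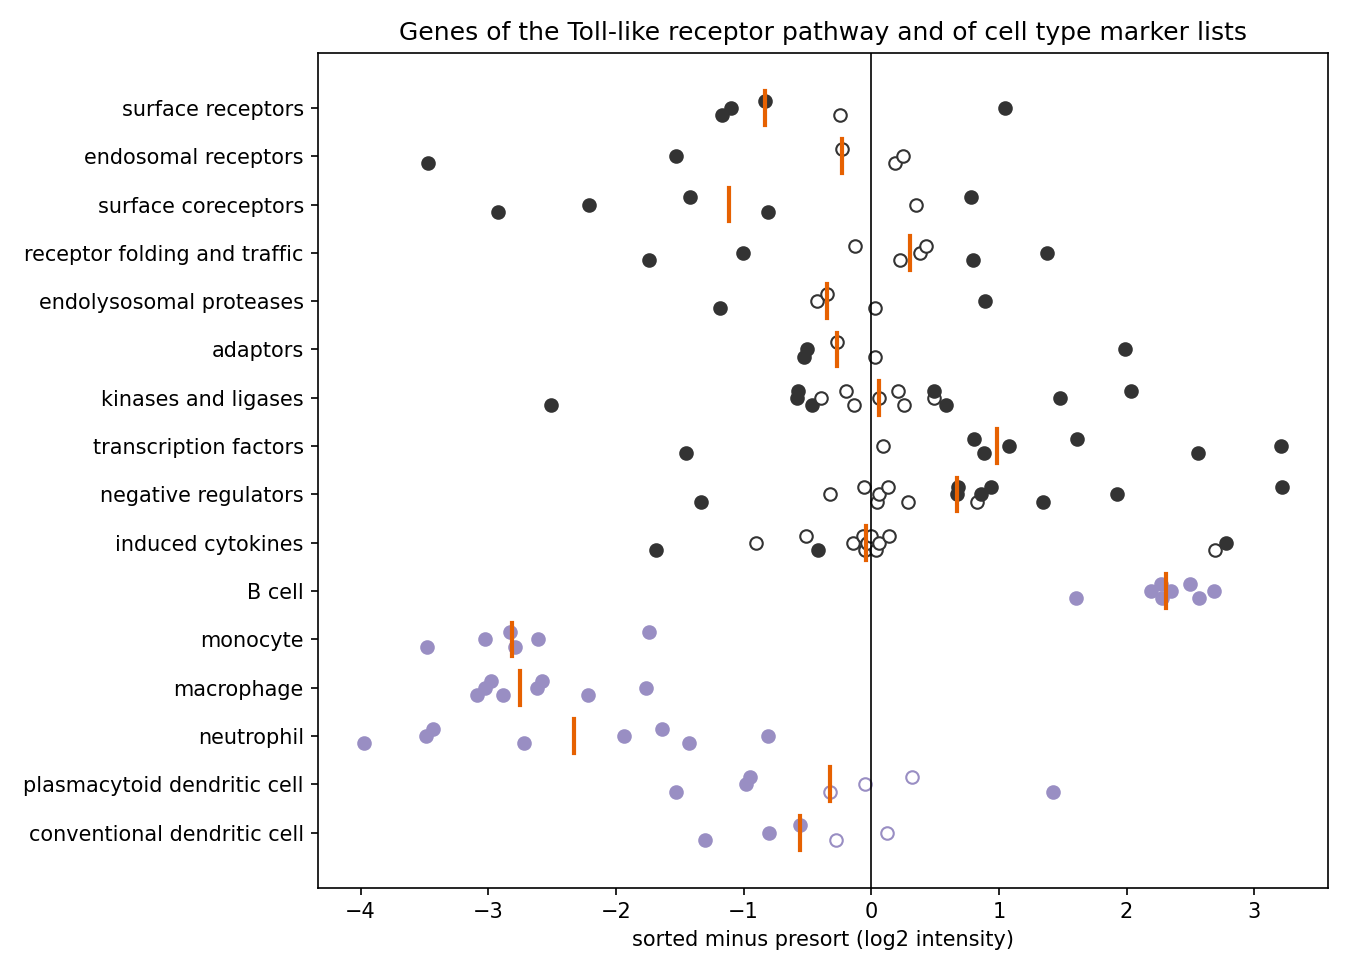
Sorted minus presort difference in log2 intensity (horizontal axis) of each measured gene in the receptor classes, the pathway lists (black) and marker lists of marrow cells (violet); filled points passed the adjusted threshold and orange bars are list medians. Transcription factors have a median of 0.98, and surface co-receptors with their accessory proteins of -1.11. The B cell markers lie right and the monocyte, macrophage and neutrophil markers left of 0.

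Markers of the dendritic cells that rely on Tlr7 and Tlr9 gave no single direction. Of 7 measured plasmacytoid dendritic cell markers 3 fell and 1 rose, with a median of -0.32 and summed intensities of 2672 to 3407 in sorted and 1930 to 2305 in presort samples. The brightest of them was Tcf4, with mean log2 intensities of 11.04 in sorted and 9.62 in presort samples. The higher sums in sorted samples rest largely on that gene. Tcf4, which B cells also express, rose by 1.42, and Ccr9 fell by 1.53, a call lost in 11 of 19 alternatives, among them those without sorted replicate 1 or 2, any 1 of the presort replicates, pool 1 or pool 2. The count of falls in this list was 0 without sorted replicate 2, presort replicate 2, presort replicate 3 or pool 2 and with the beta-actin covariate, and 1 without sorted replicate 1. Of 5 measured conventional dendritic cell markers 3 fell, with Itgax at -1.30 and Flt3 at -0.80 (adjusted p = 0.0507 without pool 2, where 1 of the 5 fell). The eosinophil and basophil list had 7 of 7 lower (Epx at -3.68, Alox15 at -3.42), the erythroid list 5 of 5 (Car1 at -3.65, Nfe2 at -3.35), the platelet list 3 of 5 (Gp1bb at -2.02, Gp9 at -1.35) and the T and NK cell list 2 of 7 (Nkg7 at -2.99, Ncr1 at -0.67). The platelet count of falls was 5 with the pool as a block or without presort replicate 1, and 1 without pool 3 or with the beta-actin covariate, where the Gp1bb call was lost (0.102 and 0.0805); Gp1bb stood at -0.92 when its probe sets were averaged. The T and NK cell count was 4 without sorted replicate 3 and 5 without pool 3, and 1 without pool 1, without pool 2 or with the covariate, where the Ncr1 call was lost (0.0723, 0.115 and 0.0776). Centring arrays on their median and a minimum of 1.2-fold also lost the Ncr1 call. Named examples of the larger lists were Cd72 and Cd79b at 2.69 and 2.57 for B cells, Ccr2 and Ms4a6c at -3.48 and -3.03 for monocytes, C1qc and Axl at -3.09 and -3.02 for macrophages, and Itgam and Mmp9 at -3.97 and -3.49 for neutrophils. When probe sets were averaged Axl stood at -1.55, and Ms4a6c at 0.18 without passing. Their part in the falls of the receptors was not tested.

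The gene whose log2 profile over the 6 arrays was most like that of a receptor, by Pearson's r given as a description, was Top2a for Tlr13 (0.9995), Psmd12 for Tlr7 (0.9995), Arhgef4 for Tlr5 (0.999), Acta1 for Tlr4 (0.997), Cdc123 for Tlr2 (0.997) and Cpne1 for Tlr1 (0.996). For the receptors that were not called it was Amotl2 for Tlr6 (0.994), Amtn for Tlr3 (0.976), Neu1 for Tlr8 (0.997) and 4930556N13Rik for Tlr9 (0.991). Each r is the highest among all other genes and spans both groups, so that it rests largely on the difference between them where there is one. Tlr12, another mouse endosomal receptor read on the array, had 6.27, 6.40 and 6.40 in sorted samples, against 6.16, 6.27 and 6.18 in presort samples. Its difference was 0.15 (limma adjusted p = 0.335), and 2 of 19 alternatives called it higher. The groups lay just apart (6.274 against 6.267 at the closest), as groups did for 44.4% of all genes. The other probe set of Tlr12, 1438329_at, gave 0.29 (limma adjusted p = 0.348 over probe sets).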

How the data were processed

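RNA of 6 samples was labelled with biotin and read on Affymetrix 3' arrays. The authors deposited linear-scale intensities; RMA is the tool that the submitters' processing notes name, and its version is not given in the sources used here. They run from 9.71 to 38492.08 on each array with 1 shared distribution. Log2 was taken with no pseudocount. Of 45101 probe sets 34945 carried 1 symbol in the platform annotation; the probe set with the highest mean stood for its gene, giving 18193 genes. No dim gene was left out. The number of arrays limits precision.

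limma 3.58.1 under R 4.3.3 compared sorted with presort (lmFit, eBayes, two-sided, Benjamini-Hochberg over all genes, threshold 0.05); 95% intervals use its moderated spread. Samples with the same replicate number were taken as 1 pool, since the sample titles give the number alone. Deviations of same-numbered samples from group means correlated at 0.39, 0.20 and -0.03 across genes. The fit was tested on simulated data with 200 of 18193 genes changed. It recovered 70% of changes of 1 log2 and 93% of changes of 2 log2, with 6 false calls in each case. In the data 32.6% of genes were called, a far larger share, so these figures need not hold there. Alternatives were the pool as a block, leaving out arrays or pools, dim genes, normalization, probe set choice, prior, array weights, a beta-actin covariate and a minimum fold.

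Members, lists and alternatives were chosen with earlier results of these data known. Named are all members, the 3 called genes of each pathway list and the 2 of each marker list with the largest differences, and the most similar gene of each member; 153 of 170 listed genes were measured. Figures used matplotlib 3.10.9 in Python 3.11.15. The renin gene is not reported here.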

Additional observations from a re-analysis of the deposited data

How the results depend on the processing

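Of the 10 receptors, Tlr2, Tlr4, Tlr5, Tlr7 and Tlr13 kept their direction and call in all 19 alternatives, and no alternative called Tlr6, Tlr8 or Tlr9. Leaving out 1 array or pool gave 0.81 to 1.32 for Tlr1, 0 to 1 surface receptors higher, and 1544 to 2608 genes higher over the array. With arrays centred on their median 5162 genes were higher, and Tlr3 passed at 0.41 (limma adjusted p = 0.0480), so that 1 endosomal receptor was higher; the centring adds the same shift to all genes. Without _x_at and _s_at probe sets Tlr3 turned to -0.12. With the beta-actin difference as a covariate Tlr1 missed at 0.71, leaving 0 surface receptors higher, and Tlr6 turned to 0.10. A minimum of 1.2-fold left 1679 genes higher. With the mean of probe sets the marker Ms4a6c turned to 0.18. The cause of these changes was not tested. With the replicate number as a block (pairing by pool) 2860 genes were higher and 3548 lower, Tlr1 stood at 1.05 ± 0.16 (SE; adjusted p = 0.00283), and no call of a receptor changed; among the other lists the block moved the cytokine and platelet counts by over 1.5 times, as given with them. Of 722 recounts of the other lists 652 were within 1.5 times, and 31 of 43 other named genes kept direction and call throughout. No detection calls were used, so the signal of dim probe sets over background is unknown.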
